A study of Drosophila melanogaster with 6 samples.

Results

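Of the 17489 genes in the count tables, 6691 had at least 100 reads in each of the 3 control diet libraries, and among these genes already expressed on the control diet 4 stood clearly higher on the sugar diet. They are *CG31538*, *Pof*, *Gpdh3* and *TrpRS-m*. They were chosen by the diet difference itself: the lowest sugar diet value had to be at least 1.5 times the highest control diet value, in CPM, the sense-strand counts of genes scaled to a library total of 1000000. The 4 genes are 0.0598% of the 6691, and because the rule used the diet contrast, their diet difference is given here as a description without a test.

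The libraries came from heads of male *Drosophila melanogaster* of the genotype Gr5a:Pclc429>UAS-Rpl3-3XFLAG, held from day 5 until day 12 on a control diet with 5% sucrose or a sugar diet with 30% sucrose, with 3 biological replicates of 300 heads per diet. The promoter of *Gr5a*, a receptor for sugars in sweet taste neurons, drove a FLAG-tagged ribosomal protein, and all flies of both diets carried the mutation in *Pcl* (Polycomblike), which encodes a cofactor of the Polycomb complex that methylates histone H3. The comparison asks which transcripts differ after 7 days on high sugar in flies with this mutation, and no flies with an intact *Pcl* were analysed here. The labels call the samples *Gr5a* sensory neurons but do not say whether the bead-bound or the input RNA of the head lysate was sequenced. The markers of that cell type were close to the floor of detection of 3 counts: *Gr5a* itself had 6, 0 and 10 counts in control diet replicates 1, 2 and 3 and 2, 4 and 10 in sugar diet replicates 1, 2 and 3. The 9 sweet neuron genes examined summed to 1.12 to 2.62 CPM on the control diet and 0.523 to 2.88 CPM on the sugar diet, and 4 of them had no reads in any library. *Pcl* was at 47.2, 52.9 and 51.4 CPM on the control diet and 55.9, 52.3 and 54.6 CPM on the sugar diet, with a log2 fold change of −0.03 ± 0.12 (SE, q = 0.979 by DESeq2). Its values on the diets overlapped.

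The 3 genes with a known role act in different processes. Glycerol-3-phosphate dehydrogenases reduce dihydroxyacetone phosphate, an intermediate of glycolysis, to glycerol 3-phosphate. That product feeds lipid synthesis and, through the mitochondrial glycerophosphate oxidases, carries electrons from the cytosol to the respiratory chain. Aminoacyl-tRNA synthetases load each tRNA with its amino acid, and separate enzymes do so in the mitochondrion, where they serve the translation of the proteins encoded in the mitochondrial genome. POF binds nascent transcripts of the fourth chromosome and raises the output of that small, heterochromatin-rich chromosome. *CG31538* is known here only by its annotation number, and no role is given for it.

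*CG31538* (FBgn0051538) showed the largest difference of the 4. It is a protein coding gene of 1 exon and 1 transcript on chromosome 3R, 5275678 to 5277835 on the minus strand (dm6 coordinates), with 2158 exonic bases. Its level was 6.98, 8.56 and 8.65 CPM in control diet replicates 1, 2 and 3 and 33.4, 42.8 and 79.4 CPM in sugar diet replicates 1, 2 and 3. Every sugar diet library lay far above every control diet library, and replicate 3 stood highest. The means were 8.06 ± 0.94 and 51.9 ± 24.3 CPM (SD, n = 3 each), a ratio of 6.43, and the lowest sugar diet value was 3.87 times the highest control diet value. The raw counts behind these values were 168, 108 and 152 on the control diet and 640, 742 and 1325 on the sugar diet.

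*CG31538* lies inside *mtd* (mustard, a relative of the oxidation resistance gene of mammals), which is read from the same strand. All 23 annotated *mtd* transcripts span it and 0 of their exons overlap it, so the place is intronic for *mtd*, and reads from unspliced *mtd* transcripts cannot be told apart from *CG31538* reads there. The exonic counts of *mtd* overlapped between the diets. They gave 926, 932 and 1016 CPM on the control diet and 923, 1059 and 995 CPM on the sugar diet, a log2 fold change of −0.09 ± 0.07 (SE, q = 0.717 by DESeq2).

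*Pof* (FBgn0035047) encodes the protein POF but does not itself lie on the fourth chromosome. Its place is 2R, 24669397 to 24671577 on the plus strand, with 3 transcripts, 4 exon blocks and 2008 exonic bases. It was at 10.5, 10.6 and 12.3 CPM on the control diet and 26.7, 34.1 and 66.0 CPM on the sugar diet. The control diet libraries were close together, and the sugar diet libraries were all higher and spread widely. The mean went from 11.2 ± 1.02 to 42.3 ± 20.9 CPM (SD, n = 3 each), a ratio of 3.78, and the lowest sugar diet value was 2.16 times the highest control diet value. Its annotated span shares 284 bases with *Mmp1*, a matrix metalloproteinase gene on the opposite strand. The counts on the strand opposite to *Pof* were 108, 73 and 77 on the control diet and 92, 70 and 84 on the sugar diet, so the diets overlapped on that strand, and *Mmp1* itself had a log2 fold change of −0.07 ± 0.13 (SE, q = 0.933 by DESeq2).

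*Gpdh3* (FBgn0263048), 1 of the 3 glycerol-3-phosphate dehydrogenase genes of the fly, lies on chromosome 3R, 22382035 to 22386548 on the plus strand, with 3 transcripts, 6 exon blocks and 4226 exonic bases. It was at 18.9, 23.9 and 22.7 CPM on the control diet and 45.6, 65.0 and 107.5 CPM on the sugar diet. Again no values overlapped, and sugar diet replicate 3 was the highest. The mean went from 21.8 ± 2.56 to 72.7 ± 31.7 CPM (SD, n = 3 each), a ratio of 3.33, and the lowest sugar diet value was 1.91 times the highest control diet value. Its span overlaps *CG43342* on the same strand by 113 bases and *CAH8*, a carbonic anhydrase gene, on the other strand by 60 bases. Neither passed the test, with DESeq2 q values of 0.993 and 0.981.

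*TrpRS-m* (FBgn0036763), the mitochondrial tryptophanyl-tRNA synthetase, lies on chromosome 3L, 17849727 to 17852453 on the plus strand, with 2 transcripts, 3 exon blocks and 2477 exonic bases. It was at 18.6, 19.3 and 18.4 CPM on the control diet and 31.5, 41.1 and 64.7 CPM on the sugar diet. Its control diet libraries were the most alike of the 4 genes, with a highest value 1.05 times the lowest. The mean went from 18.8 ± 0.50 to 45.8 ± 17.1 CPM (SD, n = 3 each), a ratio of 2.44, and the lowest sugar diet value was 1.63 times the highest control diet value, the nearest of the 4 to the threshold.

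**Figure D1:**
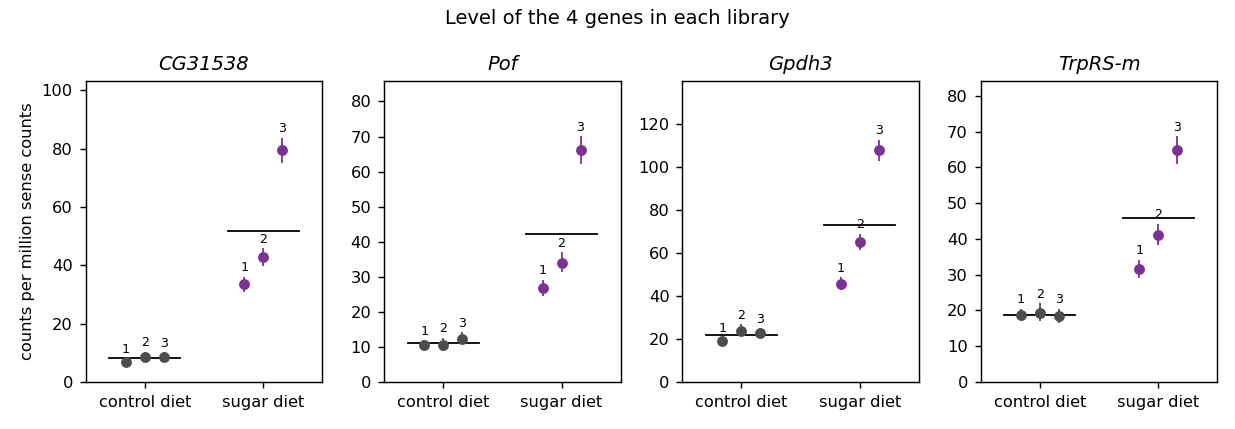
Level of each of the 4 genes (y axis, CPM) in the 3 control diet libraries (grey) and the 3 sugar diet libraries (purple), with the replicate number above each point, exact Poisson 95% intervals as bars (counting error only) and the group mean as a line. All sugar diet points lie above all control diet points, and replicate 3 is the highest in each panel, at 79.4, 66.0, 107.5 and 64.7 CPM.

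Counting intervals give the precision of single values, and that they lie apart between the diets follows largely from the rule. In the shallowest library, control diet replicate 2, *CG31538* had an exact Poisson 95% interval of 7.02 to 10.3 CPM, whereas its lowest sugar diet value had one of 30.9 to 36.1 CPM. For *TrpRS-m*, the gene with the smallest difference, the widest control diet interval reached 21.9 CPM and the lowest sugar diet interval began at 29.0 CPM. These intervals cover counting error only, and no counting of molecular identifiers is stated for these tables.

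The 4 genes differed in size of difference but were ordered in another way by level. On the control diet, per kilobase of exon, *TrpRS-m* was at 7.58 ± 0.20 CPM, *Pof* at 5.56 ± 0.51, *Gpdh3* at 5.16 ± 0.61 and *CG31538* at 3.74 ± 0.44 (SD, n = 3 each). *Pof* and *Gpdh3*, neighbours in this order, did not differ beyond their spread. On the sugar diet the means per kilobase were 24.0 ± 11.3 CPM for *CG31538*, 21.0 ± 10.4 for *Pof*, 18.5 ± 6.89 for *TrpRS-m* and 17.2 ± 7.50 for *Gpdh3* (SD, n = 3 each). The gene that was lowest on the control diet thus had the highest mean on the sugar diet, and none of these sugar diet levels differed from its neighbour beyond the spread. By mean control diet CPM, the unit of the rule, which is not corrected for length, all 4 sat in the lower part of the expressed range: *CG31538* was at the 1.14 percentile of the 6691 genes, *Pof* at the 8.97, *TrpRS-m* at the 24.9 and *Gpdh3* at the 29.9.

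Over all 6691 genes the ratio of mean sugar diet to mean control diet CPM had a median of 1.06, with 5th and 95th percentiles of 0.905 and 1.28. The median over the 4 genes was 3.56. Only 12 of the 6691 genes had a ratio of at least 2, and 2 had a ratio of 0.5 or less. The 12 include the 4 genes, which hold the 4 highest ratios. After them came *CG1418* at 2.42, the unnamed gene FBgn0035707 at 2.25, *CG5886* at 2.22, *CG42675* at 2.19, the adenylate kinase gene *Ak3* at 2.13, *CG14995* at 2.05, *CG7059* at 2.02 and *CG16972* at 2.01. The scale matters slightly for such ratios: the median of the 6691 genes was 0.08 on the log2 scale in CPM and −0.05 in the DESeq2 fit, and relative to either the 4 genes were far higher. Their fitted log2 fold changes were 2.54 ± 0.27 for *CG31538*, 1.77 ± 0.27 for *Pof*, 1.59 ± 0.24 for *Gpdh3* and 1.14 ± 0.22 for *TrpRS-m* (SE, DESeq2, n = 3 per diet).

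**Figure D2:**
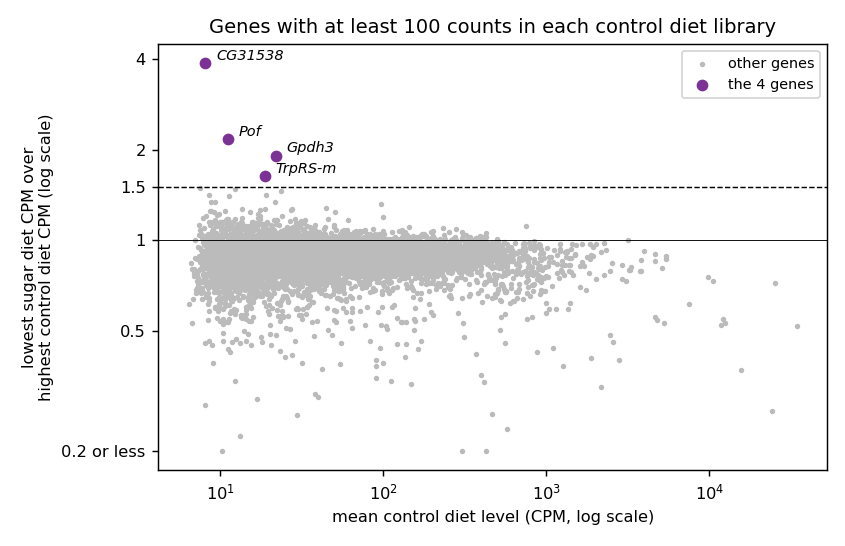
Each point is 1 of the 6691 genes with at least 100 counts in each control diet library. The x axis is the mean control diet level (CPM, log scale), and the y axis is the lowest sugar diet CPM over the highest control diet CPM (log scale, values under 0.2 drawn at 0.2). The 4 genes (purple) lie above the dashed threshold of 1.5, at 3.87, 2.16, 1.91 and 1.63, and no other gene does.

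The threshold separated the 4 genes from a close field of others. Just inside it were *TrpRS-m* at 1.63, *Gpdh3* at 1.91 and *Pof* at 2.16 times the highest control diet value. Just outside were *CG42675* at 1.49, *CG5886* at 1.48 and the small nucleolar RNA snoRNA:kis-a at 1.46. *CG42675* was at 7.10, 8.64 and 6.77 CPM on the control diet and 13.1, 12.9 and 23.4 CPM on the sugar diet. *CG5886* was at 12.0, 11.3 and 13.3 CPM against 19.6, 25.8 and 36.0 CPM. These 2 genes show the same kind of separation as *TrpRS-m* with smaller ratios of means. The small RNA was at 28.0, 25.6 and 16.9 CPM against 40.8, 47.8 and 41.7 CPM, so here sugar diet replicate 3 was not the highest. With the threshold lowered by 0.25 the rule took 21 genes, at 2 it took 2 (*CG31538* and *Pof*), and at 3 only *CG31538*. Among the 17 genes that the lower threshold added was *CG14995*, more abundant per kilobase of exon on the control diet (23.6 CPM) than any of the 4, at 89.3, 90.0 and 109 CPM on the control diet and 144, 188 and 259 CPM on the sugar diet.

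Gaps between the diets of any size were also counted among the expressed genes. In 601 of the 6691 genes (8.98%) every sugar diet value exceeded every control diet value, and in 79 (1.18%) every sugar diet value was below. With 3 libraries per diet some genes separate in this way by chance, and the share to be had by chance was not worked out. Both numbers are in CPM, a scale on which the median ratio of means was 1.06. In the DESeq2 fit the median log2 fold change of these genes was −0.05, with 50 called higher and 71 lower. The rule with its direction turned round found 1 gene (0.0149%), *Yp1*, a yolk protein gene of the female fat body. *Yp1* was at 6.23, 1140 and 137 CPM on the control diet and at 2.51 CPM or less on the sugar diet. Its control diet libraries were spread widely, whereas those of the 4 genes differed by a factor of 1.26 or less. Without control diet replicate 2, the library with the most *Yp1*, the ratios of means of *CG31538*, *Pof*, *Gpdh3* and *TrpRS-m* were 6.64, 3.69, 3.50 and 2.48.

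Such gaps became rare as the level on the control diet rose. Over all genes with a read, and with control diet values raised to the floor of 3 counts where they were below it, a lowest sugar diet value at least 1.5 times the highest control diet value was found in 1591 of 6567 genes (24.2%) whose lowest control diet count was under 10. It was found in 94 of 1011 (9.30%) from 10 to under 30 counts and in 38 of 1865 (2.04%) from 30 to under 100. From 100 to under 300 counts it was found in 3 of 2269 (0.132%), namely *CG31538*, *Pof* and *TrpRS-m*, and from 300 to under 1000 in 1 of 2261 (0.0442%), namely *Gpdh3*. At 1000 counts or more it was found in 0 of 2161. By control diet level the 4 genes lay at the upper end of the genes past this ratio. Most of those genes had a lowest control diet count under 10. The same added CPM gives a smaller ratio at a higher control diet level. Whether the 4 genes and the genes with few counts share 1 difference was not tested.

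**Figure D3:**
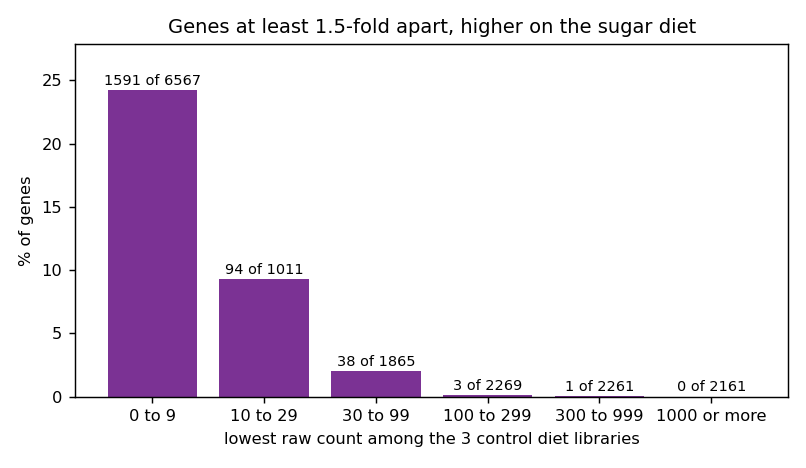
Share of genes (y axis, %) whose lowest sugar diet CPM was at least 1.5 times the highest control diet CPM, by the lowest raw count among the control diet libraries (x axis). The number of such genes and of all genes in each bar is printed above it, and the share falls from 24.2% under 10 counts to 0.0442% from 300 to under 1000 and 0 of 2161 at 1000 or more.

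The fit over all genes showed the same gradient. DESeq2 called 1990 of 14254 tested genes higher on the sugar diet (14.0%, q under 0.1) and 77 lower (0.540%), and edgeR called 1561 of 11471 higher (13.6%) and 39 lower (0.340%). The number of lower calls moved with single libraries: DESeq2 gave 22 without control diet replicate 1, 212 without control diet replicate 3, and 496, 33 and 12 without sugar diet replicates 1, 2 and 3. Among the 6691 expressed genes DESeq2 called 50 higher (0.747%) and 71 lower (1.06%). Among the other 7563 genes it called 1940 higher (25.7%). The median log2 fold change of the genes called higher was 0.60 in the expressed genes, with a range of 0.30 to 2.54, and 4.86 in the others. A gene with few counts mostly passes the q cutoff only with a large fold change, so these medians differ partly through the cutoff. Called or not, the median was 0.02 over all 14254 tested genes and −0.05 over the expressed ones. *CG31538* sets the upper end of the range in the expressed genes.

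The difference was also taken in added CPM, as opposed to ratio and without correction for length. By this measure the 4 genes stood with the larger increases among genes with all sugar diet values above all control diet values. The mean sugar diet level exceeded the mean control diet level by 50.9 CPM for *Gpdh3*, 43.8 for *CG31538*, 31.1 for *Pof* and 27.0 for *TrpRS-m*. Among the 3527 genes of any level whose sugar diet values all exceeded their control diet values, these excesses ranked 42, 54, 97 and 120. Of the 1367 such genes with no more than 3 counts in any control diet library, the median excess was 0.965 CPM and the highest was 29.6 CPM. None of those 1367 genes had a larger excess than *Gpdh3*, *CG31538* or *Pof*, and 1 had a larger excess than *TrpRS-m*. The rule chose the 4 genes by this same diet contrast, with a minimum control diet count and a minimum ratio between the diets. A sizeable excess in CPM was therefore partly built into the choice. The ranks and the comparison with the 1367 genes are given as a description without a test.

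The 3 sugar diet libraries were not alike for these genes. In all 4, replicate 1 was the lowest and replicate 3 the highest, an order held by 1933 of the 6691 genes (28.9%). The step from the lowest to the highest sugar diet library was 2.37-fold for *CG31538*, 2.47-fold for *Pof*, 2.36-fold for *Gpdh3* and 2.05-fold for *TrpRS-m*. Over the control diet libraries the same measure was 1.24, 1.17, 1.26 and 1.05. With the lowest sugar diet step of the 4 genes, 2.05, as the limit, 13 of the 6691 genes (0.194%) reached it from replicate 1 to replicate 3. The limit was taken from the 4 genes, so the 13 include them by construction. Without sugar diet replicate 3 the ratio of means was 4.73 for *CG31538*, 2.72 for *Pof*, 2.53 for *Gpdh3* and 1.93 for *TrpRS-m*. Without sugar diet replicate 1 the ratios were 7.57, 4.48, 3.95 and 2.82.

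The genes of the families to which the 4 belong show how far the difference was shared, beginning with *Gpdh3* and the glycerol phosphate enzymes. Of the 5 other genes of this group, DESeq2 and edgeR each called 3 higher on the sugar diet and 0 lower, where DESeq2 called 25.7% of all genes below 100 control diet counts and 0.747% of those above it. They were *Gpdh2*, *Gpo2* and *Gpo3*, all of which had few or no counts on the control diet. The main paralogs *Gpdh1* and *Gpo1* were not called. *Gpdh1*, the major cytosolic enzyme, was at 439, 399 and 435 CPM on the control diet and 475, 460 and 451 CPM on the sugar diet. Its log2 fold change was −0.01 ± 0.10 (SE, q = 0.992 by DESeq2). *Gpo1*, the main mitochondrial glycerophosphate oxidase, was at 83.0, 76.6 and 93.5 CPM against 84.7, 100.4 and 108 CPM, and the log2 fold change was 0.07 ± 0.11 (SE, q = 0.889 by DESeq2).

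The called genes started low. *Gpdh2* had 0, 0 and 1 counts on the control diet and 20, 30 and 54 on the sugar diet, and its ratio of summed counts, scaled to depth, was 106 with an exact 95% interval of 18.6 to 4231 (DESeq2 q = 3.5e-05). *Gpo2* was at 0.789, 0.793 and 0.626 CPM against 2.67, 4.84 and 6.89 CPM, a log2 fold change of 2.55 ± 0.48 (SE, q = 2.4e-06 by DESeq2). *Gpo3* had 2, 0 and 1 counts against 95, 207 and 381, and its ratio of summed counts was 232 with an exact 95% interval of 79.2 to 1129 (DESeq2 q = 5.8e-14). The intervals of *Gpdh2* and *Gpo3*, from counts summed over the libraries of each diet, cover counting error only and not the spread between libraries. In *Gpdh2*, *Gpo2* and *Gpo3* alike, sugar diet replicate 1 was lowest and replicate 3 highest, as in *Gpdh3*. Per exon length, *Gpdh3* made up 3.12, 4.27 and 3.73% of the summed CPM per kilobase of the 3 dehydrogenase genes on the control diet and 6.64, 9.44 and 14.9% on the sugar diet. *Gpdh1* held the rest but for a small share of *Gpdh2*, with 96.9, 95.7 and 96.2% on the control diet and 92.8, 89.7 and 83.6% on the sugar diet.

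The family of *TrpRS-m* is read against a background of 0.747% called higher among the expressed genes and 25.7% among the others. Of the 13 other mitochondrial synthetase genes named by amino acid, DESeq2 and edgeR called 0, 1 had an unadjusted p under 0.05, and the median log2 fold change was 0.07. The highest of them was *CysRS-m*, at 10.6, 11.2 and 13.2 CPM on the control diet and 13.4, 15.6 and 24.8 CPM on the sugar diet. Its log2 fold change was 0.48 ± 0.24 and did not pass (SE, q = 0.241 by DESeq2), and it did pass when sugar diet replicate 1 was left out, with a log2 fold change of 0.62. Of the 19 other synthetase genes, 0 were called by DESeq2 or by edgeR and 0 had an unadjusted p under 0.05, a count near the background of 0.747%, since all 19 were expressed genes. *TrpRS*, which loads the same amino acid in the cytosol, was at 13.7, 13.1 and 18.2 CPM against 14.3, 19.1 and 22.4 CPM, a log2 fold change of 0.17 ± 0.20 (SE, q = 0.829 by DESeq2). The difference between *TrpRS-m* and its relatives was not itself tested, since *TrpRS-m* was chosen by this contrast.

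**Figure D4:**
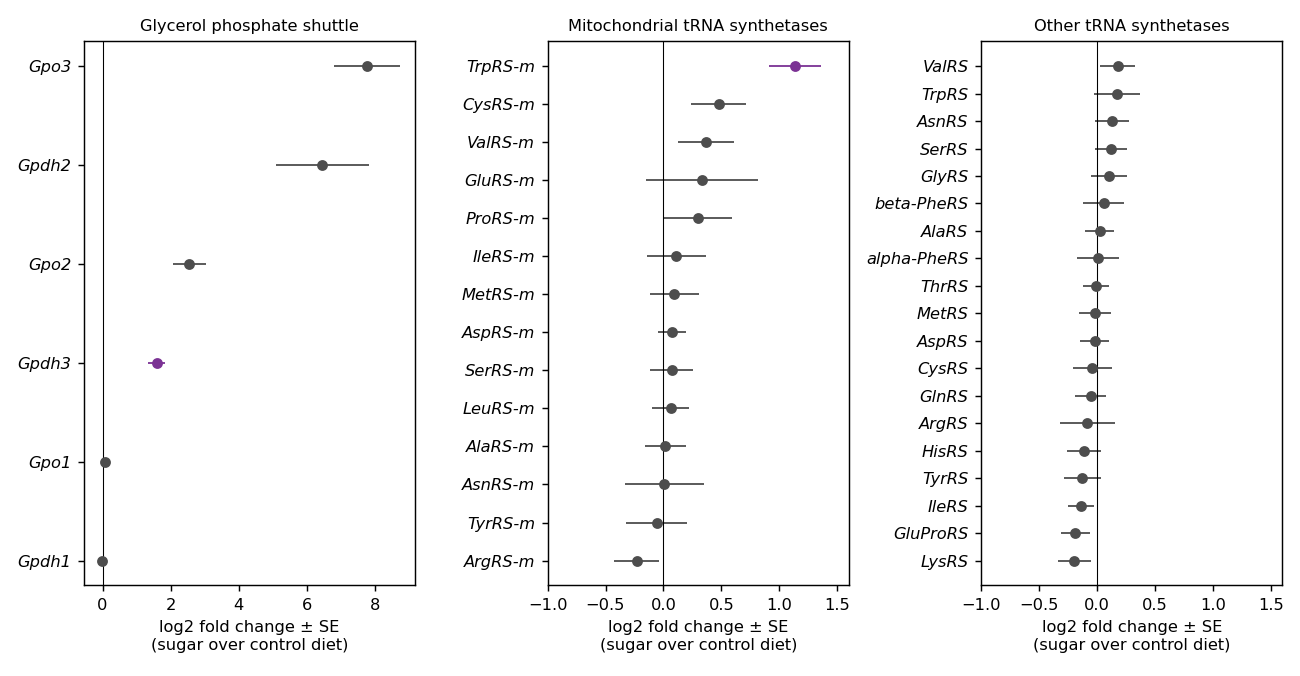
Log2 fold change of sugar over control diet (x axis, DESeq2 estimate with SE as bars) for the genes of the glycerol phosphate shuttle, the mitochondrial tRNA synthetases and the other tRNA synthetases, with *Gpdh3* and *TrpRS-m* in purple and a wider x axis in the first panel. *Gpdh1* and *Gpo1* lie at −0.01 and 0.07 while *Gpdh2*, *Gpo2* and *Gpo3* lie far to the right, and *TrpRS-m* at 1.14 has no other synthetase beyond 0.48.

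The genes that act with POF, or in the other chromosome-wide system of the fly, were examined next. *egg* encodes the histone methyltransferase of the fourth chromosome, *Su(var)205* encodes heterochromatin protein HP1, and the *msl* genes, *mle*, *mof* and the *roX* RNAs make up the complex that raises the output of the male X chromosome. With *Su(var)3-9*, another histone methyltransferase, these are 10 genes, of which DESeq2 and edgeR called 0 and 0 had an unadjusted p under 0.05. The median log2 fold change was 0.03, and that of *Su(var)205*, the furthest from 0, was 0.23 ± 0.16 (SE, q = 0.548 by DESeq2). Of the 10, 9 were expressed genes, so 0 calls is near the background of 0.747%. None of the 10 had sugar diet values all above its control diet values, beside 8.98% of the expressed genes, and neither count sets the group apart.

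The transcripts that POF binds come from the fourth chromosome. Of its 79 genes with at least 100 counts in each control diet library, DESeq2 called 0 higher and 2 lower, edgeR called 0 higher, and 0 of the 7 with an unadjusted p under 0.05 were higher. With 0.747% of all expressed genes called higher, a count of 0 in 79 is near the background. Of all expressed genes 1.06% were called lower, and 104 of the 375 with an unadjusted p under 0.05 were higher. Whether the chromosome differs from the other genes in these counts was not tested. The median log2 fold change was −0.08, with a range of −0.41 to 0.23, beside −0.05 over all 6691 genes and −0.06 to −0.05 on the other chromosome arms. The 2 lower genes were *RpS3A*, which encodes a ribosomal protein, at −0.41 ± 0.14 (SE, q = 0.031 by DESeq2, edgeR q = 0.159), and *Gat*, the GABA transporter gene, at −0.30 ± 0.10 (SE, q = 0.022 by DESeq2, edgeR q = 0.033). Of all 105 tested genes of the fourth chromosome, 1 was called higher, *JYalpha*, a sodium pump subunit gene needed for sperm motility. It was below 100 control diet counts, a class in which 25.7% of all tested genes were called higher. *JYalpha* was at 0.374, 0.634 and 0.341 CPM on the control diet and 1.46, 1.84 and 5.27 CPM on the sugar diet, with a log2 fold change of 2.54 ± 0.66 (SE, q = 0.0015 by DESeq2).

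The genes next to the 4 on the chromosome were examined for the same difference. Within 4000 bases of the 4 genes, or overlapping them, were 14 other genes, and DESeq2 called 1 of them, higher, beside 14.0% of all tested genes called higher and 0.747% of the expressed ones. This was *CG7059*, 3231 bases beyond *Gpdh3* on the same strand, at 7.31, 9.04 and 10.6 CPM on the control diet and 12.2, 15.1 and 27.1 CPM on the sugar diet. Its log2 fold change was 0.87 ± 0.28 (SE, q = 0.018 by DESeq2, edgeR q = 0.087), and the call was lost without control diet replicate 1 (DESeq2 q = 0.215) or without sugar diet replicate 3 (DESeq2 q = 0.254). The genes nearest to *TrpRS-m*, *CG7430* at 125 bases and *CG5535* at 170 bases, were not called (DESeq2 q = 0.928 and 0.991).

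Many markers of tissues that a head sample should hold little of rose on the sugar diet too. None of the 4 genes is on any of these marker lists. The share called higher was 14.0% of all tested genes and 25.7% of those below 100 control diet counts, to which most of these markers belong. Of 36 tested testis genes DESeq2 called 29 higher and 0 lower, and the summed level of the list was 485 to 547 CPM on the control diet and 959 to 2006 CPM on the sugar diet. Of that sum *bol* alone gave 456 to 514 CPM and 473 to 546 CPM, and 9 of the 37 genes had no more than 3 counts in any control diet library. The 9 tested sperm axoneme dyneins gave 6 higher, with sums of 35.5 to 45.5 CPM and 65.5 to 133 CPM. Of 45 digestive tract genes 28 were higher, with sums of 120 to 186 CPM on the control diet and 384 to 875 CPM on the sugar diet. Of 26 accessory gland and ejaculatory duct genes 24 were higher, with sums of 195 to 255 CPM and 337 to 668 CPM.

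Markers of tissues that heads do hold are mostly expressed genes, of which 0.747% were called higher over the tables. DESeq2 called 0 of 14 neuron, 0 of 14 photoreceptor, 0 of 7 glia, 0 of 21 muscle, 0 of 13 fat body and 0 of 8 hemocyte genes higher, edgeR called 0 of them higher, and 0 were higher at an unadjusted p under 0.05. These counts of 0 are near that background. DESeq2 called 0, 1, 1, 1, 4 and 0 of them lower, beside 1.06% of the expressed genes. In the same order of lists, 1, 7, 1, 6, 4 and 2 genes had an unadjusted p under 0.05, all lower. Over the 6691 expressed genes 375 had such a p, and 104 of these were higher. Over all marker lists the genes called lower by DESeq2, 7 in number, became 4 and 13 without control diet replicates 1 and 3, and 33 and 2 without sugar diet replicates 1 and 3. The glycolysis list had 0 of 13 genes called and the list of sugar-responsive and lipid synthesis genes 0 of 13, with 0 and 1 at an unadjusted p under 0.05 and 0 higher by edgeR. The heat shock and Malpighian tubule lists do not mark head tissues, and only 8 of 20 and 3 of 11 of their genes were expressed genes. Of genes below 100 control diet counts 25.7% were called higher. Of 17 tested heat shock genes 3 were called higher, and of 11 Malpighian tubule genes 5, which fell to 2 with edgeR and to 1 without sugar diet replicate 3. In bulk samples fewer cells of a type and less RNA per cell cannot be told apart.

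The 4 genes and the marker lists were compared by library, taking each library's excess over the mean control diet level as a percentage of the excess in sugar diet replicate 3. For *CG31538* this was 35.6% in replicate 1 and 48.7% in replicate 2, for *Pof* 28.3% and 41.7%, for *Gpdh3* 27.7% and 50.3%, and for *TrpRS-m* 27.7% and 48.7%. All 4 genes had a larger excess in replicate 2 than in replicate 1. The summed testis list was at 30.1% and 52.6%, the axoneme dyneins at 27.4% and 36.0% and the Malpighian tubule list at 7.32% and 46.6%, with the larger excess again in replicate 2. The testis sum includes *bol*, which was not called (DESeq2 q = 0.902). *bol* was at 473, 546 and 498 CPM in sugar diet replicates 1, 2 and 3, against a control diet mean of 477 CPM. The testis share in replicate 2 therefore partly reflects this gene, and the list was not compared without it. The digestive tract list was at 35.7% and 32.2%, and the accessory gland and ejaculatory duct list at 49.3% and 24.6%, both with the smaller excess in replicate 2. The part of any of these tissues in the difference of the 4 genes was not tested, and with 3 libraries per diet it cannot be told apart from a difference made in other cells of the sample.

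**Figure D5:**
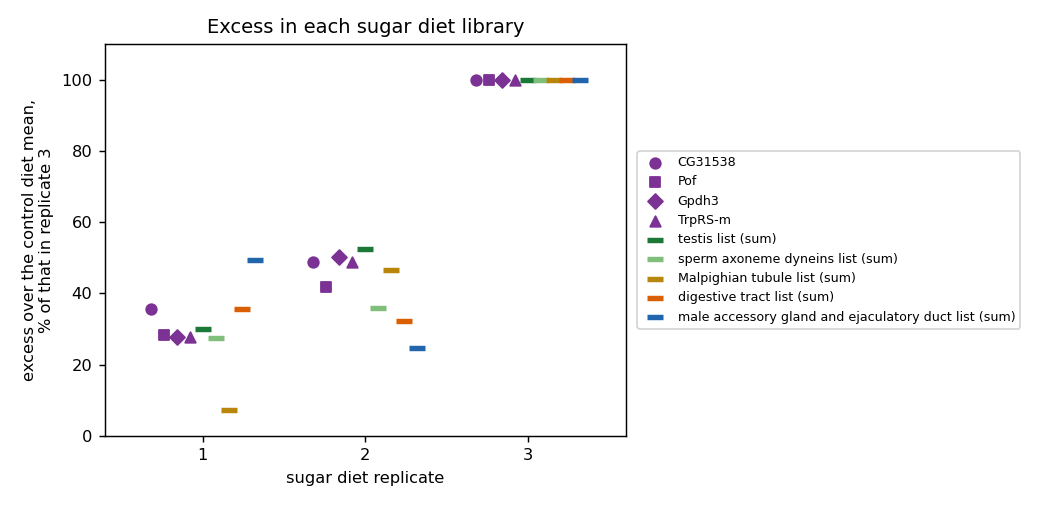
Excess over the mean control diet level in each sugar diet replicate (x axis), as % of the excess in replicate 3 (y axis), for the 4 genes (purple symbols) and for the summed CPM of 5 marker lists (bars). In replicate 2 the 4 genes lie at 41.7 to 50.3%. The testis list, whose sum includes *bol*, itself highest in replicate 2, lies at 52.6%. The Malpighian tubule list lies at 46.6% and the sperm axoneme dyneins at 36.0%. The digestive tract list lies at 32.2% and the accessory gland and ejaculatory duct list at 24.6%.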

How the data were processed

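RNA-seq libraries of 6 samples were used, 3 per diet. The authors depleted ribosomal RNA, discarded low quality reads, aligned the rest with STAR to dm6 and deposited raw counts per gene. The methods of the study name HTSeq for counting, while each table has the layout that STAR writes, with unstranded, sense and opposite-strand columns. Versions of STAR and HTSeq, the annotation release and any removal of PCR duplicates are not given in the sources used here. The submitters' processing notes also name SAMtools 1.4 and DESeq2 1.18.0. Reads that map to several places or to several genes are kept apart from genes in this layout, so values of overlapping or near-identical genes are underestimates. They were left out with all other unassigned reads, which include unmapped reads and reads outside genes. All unassigned reads together were 40.9 to 47.3% per library.

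The sense column held 97.0 to 97.3% of stranded counts and was used, with 12617127 to 24076315 counts per library. Counts were scaled to CPM by that total. Symbols were matched to 17215 of 17489 identifiers, and coordinates are those of Ensembl release 115. The floor is 3 counts per library.

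DESeq2 1.42.0 in R 4.3.3 fitted diet alone on every gene with a count (two-sided Wald test, Benjamini-Hochberg q under 0.1), as in the study. The quasi-likelihood test of edgeR 4.0.16, TMM scaling, a filter of 10 counts in 3 libraries, the unstranded column, a replicate block, other thresholds of the rule and leaving out each library were alternatives. Named genes are *Pcl*, every member of the rule, the 3 genes on each side of its threshold and list genes where a count turns on them. The other genes named were chosen after their values were seen: those with a ratio of means of at least 2, the lower gene of the mirrored rule, called or extreme genes of small counts, neighbours and family genes. The members and lists were chosen with earlier results of these data known, and the families were set after the members were known. List symbols without a match in the tables were not analysed here.

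Replicates of a diet differed far beyond sampling noise (chi-square per degree of freedom 19.4 to 56.4) and were all kept. The labels call them biological replicates, and p-values measure the spread between these samples only. Replicate numbers come from the titles and mark no shared animals or batch.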

Additional observations from a re-analysis of the deposited data

How the results depend on the processing

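The 4 genes met the rule under both other normalizations and on the unstranded column. That they met it with 1 library left out follows from the rule, which such an omission can only loosen. The number of genes that met it moved with the limits, and was 17 with a minimum of 50 counts, 2 with a minimum of 200 (*Gpdh3* and *TrpRS-m*), 21 with the fold lowered by 0.25 and 2 with a fold of 2 (*CG31538* and *Pof*). Leaving out 1 library gave 4 to 15 genes, among them 10 without control diet replicate 2, 10 without control diet replicate 3 and 15 without sugar diet replicate 1. The median ratio of means over the 4 genes was 2.63 to 4.22 over the libraries left out, lowest without sugar diet replicate 3 and highest without sugar diet replicate 1, and 3.20 with DESeq2 size factors.

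The 2067 genes called over all genes became 1600 with edgeR and 1443 to 2532 with 1 library left out. Of these the genes called lower, 77 as reported, were 39 with edgeR and 12 to 496 with 1 library left out. With the replicate number as a block the count was 1842, of which 121 were lower. Same-numbered libraries did not deviate together (correlations of 0.0327, −0.0369 and −0.0998 over 11486 genes), so the numbers were not taken as pairs. The marker list genes called higher, 95 in all, ranged from 78 to 95, and those called lower, 7 in all, from 2 without sugar diet replicate 3 to 33 without sugar diet replicate 1. The sign of *Gpdh1* turned with edgeR, to 0.0017 on the log2 scale, and it ran from −0.078 to 0.034 with 1 library left out. That of *Pcl* ran from −0.097 to 0.029. Neither was called under any setting. The number of Malpighian tubule genes called higher fell from 5 to 2 with edgeR. The cause was not tested.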
